A study of Mus musculus with 7 samples.

Results

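The Raet1 and H60b gene cluster of mouse chromosome 10 was examined in a chromatin accessibility data set of haematopoietic stem cells. The members are all peaks whose midpoint lies between 21850000 and 22650000 on chromosome 10 (mm9), a stretch of 800 kb that holds Raet1d, Raet1e and H60b with their near flanks. The window held 37 of the 98723 peaks of the table. It was chosen by measured values, since 2 of its peaks had been called higher in an earlier comparison of control with Runx3 libraries. Every difference between these groups in the window is therefore given as a description.

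Bone marrow enriched for cKit came from C57BL/6 mice at 24 months of age and was infected with either of 2 lentiviruses, a control or a Runx3-expressing one. All recipients were lethally irradiated, and transduced donor LSK cells were sorted 16 weeks after transplantation, as positive for CD150, the donor marker CD45.2 and hCD2 and negative for Flt3 and CD48. There were 4 control libraries, numbered 1 to 4, and 3 Runx3 libraries, numbered 1, 3 and 4. Nothing in the labels ties a library to an animal, and part of the spread between libraries may be technical. The assay, Omni-ATAC-seq, uses a transposase that cuts accessible DNA and adds sequencing tags to it. The sorted cell type was not checked against marker genes, because no gene annotation of the mm9 build was used here.

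Raet1 and H60 proteins are cell surface molecules related to MHC class I. They are ligands of NKG2D, an activating receptor of natural killer cells and some T cells that is encoded by Klrk1 and signals through the adaptors Hcst and Tyrobp. The ligands are known for low levels on most healthy cells and for induction by infection, DNA damage or transformation. Runx3 is a transcription factor of the RUNX family, known for roles in T cells and natural killer cells.

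In RefSeq's gene table, which uses another build (GRCm38.p6), the protein-coding genes between Sgk1, a serum- and glucocorticoid-regulated kinase, and Slc2a12, a glucose transporter, are in order 4930444G20Rik, E030030I06Rik, Raet1e, H60b and Raet1d. The same stretch lists 11 long non-coding RNAs and 9 pseudogenes, for 25 genes in all. The build differs from that of the peaks, so no peak was assigned to a gene, and statements below are about peaks of the window.

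The promoters of 2 of the 3 named genes were in the RefSeq promoter table, Raet1e with 2 starts and Raet1d with 1. They are shown because they are nearly the same sequence, which bears on how reads of the cluster can be placed. The 250 bases before the second Raet1e start are chr10:22173247-22173496 and those before the Raet1d start are chr10:22361644-22361893, both on the plus strand of GRCm38.p6. Positions in this build are not those of the peaks, so only distances can be set beside each other, and these may differ between builds too. Capitals mark the bases that differ between the 2 sequences.
Raet1e, second start: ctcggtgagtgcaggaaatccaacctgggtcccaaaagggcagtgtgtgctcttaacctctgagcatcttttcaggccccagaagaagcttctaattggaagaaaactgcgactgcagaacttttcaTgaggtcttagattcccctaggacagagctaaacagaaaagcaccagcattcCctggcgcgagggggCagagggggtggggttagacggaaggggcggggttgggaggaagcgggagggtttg
Raet1d: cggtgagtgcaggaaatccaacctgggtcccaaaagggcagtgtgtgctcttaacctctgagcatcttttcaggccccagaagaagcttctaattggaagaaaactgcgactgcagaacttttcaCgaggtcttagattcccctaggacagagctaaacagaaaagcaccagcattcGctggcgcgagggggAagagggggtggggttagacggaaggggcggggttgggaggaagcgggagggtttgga

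Over the full 300 bases of each table entry, 295 of 298 aligned bases were identical, with 3 mismatches and no gap inside the alignment. The promoter at the first Raet1e start was unlike both, with 69.6% and 70.5% identity over 227 aligned bases and many gaps. Sequence beyond these 300 bases was not compared. How the authors treated reads that fit more than 1 place is not given in the sources used here.

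The 300-base promoters were searched on both strands for the RUNX core in the forms TGTGGT and TGCGGT. Neither form occurred in any of the 3 promoters of Raet1e and Raet1d. Over the 32851 promoters in the table, 16.8% held the first form and 6.5% the second. A count of 0 of 3 is near both shares, and 2 of the 3 are nearly the same sequence. Nothing particular to these promoters is read from it. The GC box GGGCGG occurred 1 time in each of the near-identical promoters and 3 times at the first Raet1e start, and 35.7% of all promoters held it. The searches covered the whole 300 bases at all 3 starts, of which only 250 bases at 2 starts are printed, and nothing beyond them.

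Of the 37 peaks, 15 passed the low-count filter and were tested, beside 57504 of 98723 in the whole table. With Runx3, 2 of the 15 were called higher, where 0.0330% of all tested peaks were (edgeR quasi-likelihood test, adjusted p under 0.05). None of the 15 was called lower, where 0.0400% of all tested peaks were, and 1 was lower at an unadjusted p under 0.05, as were 4.40% of all tested peaks. The contrast chose the window, so nothing is read from these shares.

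The first of the 2 higher peaks lies at 21977736 to 21978602. Its level was 5.68, 9.35, 12.5 and 8.05 CPM in control libraries 1 to 4, and 20.6, 15.2 and 26.3 CPM in Runx3 libraries 1, 3 and 4. The groups did not overlap, with control 3 and Runx3 3 the nearest to each other. The control mean was 8.90 ± 2.85 CPM (SD, n = 4). The Runx3 mean was 20.7 ± 5.57 CPM (SD, n = 3), and the fitted log2 fold change of 1.16 ± 0.24 (SE) corresponds to 2.24-fold.

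The second lies at 22167976 to 22168808. Control libraries 1 to 4 had 4.65, 8.18, 12.5 and 7.48 CPM, and Runx3 libraries 1, 3 and 4 had 22.5, 14.3 and 32.7 CPM. The order of the 7 libraries was the same as at the first peak, from control 1 as the lowest to Runx3 4 as the highest. The control mean was 8.20 ± 3.25 CPM (SD, n = 4). With Runx3 it was 23.2 ± 9.19 CPM (SD, n = 3), and the log2 fold change was 1.43 ± 0.27 (SE), or 2.69-fold. In both groups the highest library had more than double the level of the lowest.

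**Figure D1:**
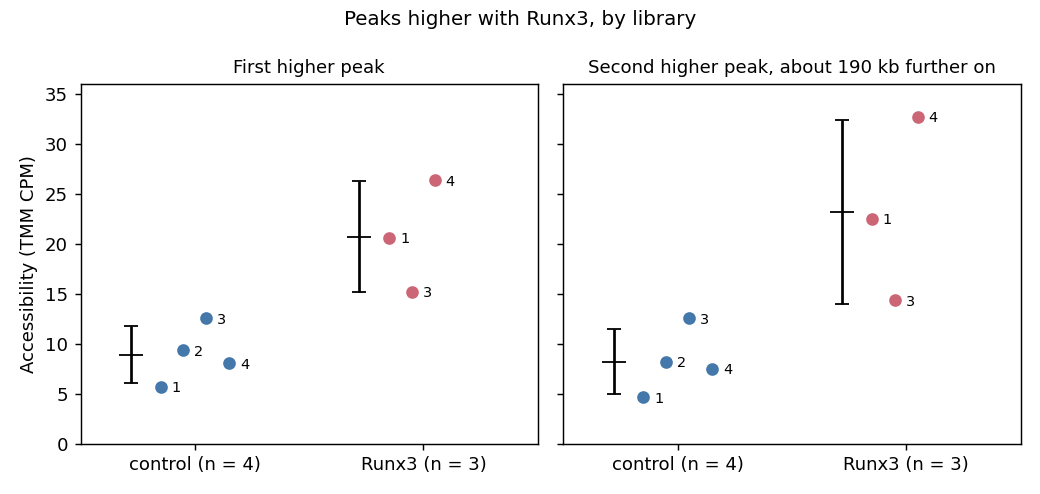
Accessibility in TMM-scaled CPM of the 2 peaks that were higher with Runx3, with 1 point per library labelled by its number, and the mean with its SD beside each group. The Runx3 libraries sit between 15.2 and 26.3 CPM at the first peak and between 14.3 and 32.7 CPM at the second, above all 4 controls at both.

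Both calls depended on single libraries. Without control 2, control 4, Runx3 1 or Runx3 4 neither peak passed in edgeR. On all libraries, neither passed in DESeq2 or limma-voom. Both stayed higher at an unadjusted p under 0.05 in these fits. The contrast chose the window for these peaks, so that adds no support. With all libraries, 3.91% of all tested peaks were higher at that threshold in edgeR. The log2 fold changes ran from 0.94 to 1.41 at the first peak and from 1.07 to 1.75 at the second over 19 alternative settings, and the low end of both came without Runx3 4.

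The 2 higher peaks held nearly the same number of reads in each library. Their midpoints are 190 kb apart and they are 866 and 832 bases wide. Raw counts at the first and the second peak were 11 and 9 in control 1, 24 and 21 in control 2, 43 and 43 in control 3, and 28 and 26 in control 4. They were 33 and 36 in Runx3 1, 36 and 34 in Runx3 3, and 58 and 72 in Runx3 4. The counts of the pair differed by 14 reads at most. The first peak took 49.2% of the 474 reads of the pair (exact 95% binomial interval 44.6 to 53.8), and in all 7 libraries the interval of its share held 50%. Those intervals were wide, from 31.5 to 76.9 in control 1 with 20 reads and from 35.9 to 53.6 in Runx3 4 with 130. Single libraries could therefore miss a moderate imbalance.

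**Figure D2:**
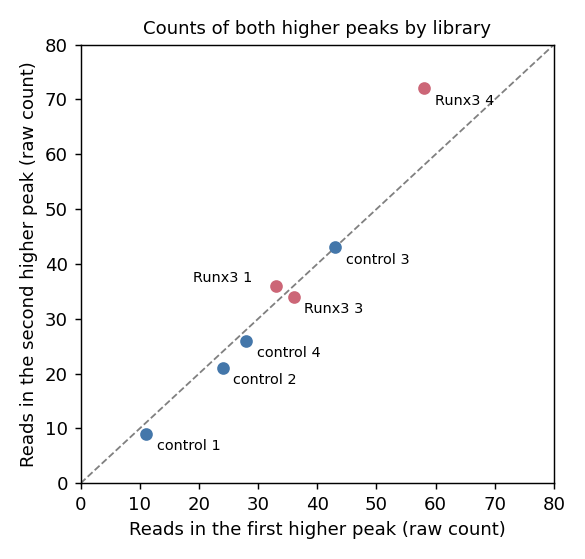
Raw read counts of the first higher peak (x axis) and of the second (y axis), with 1 point per library and a dashed line where both are equal. All libraries lie near the line, from control 1 with 11 and 9 reads to Runx3 4 with 58 and 72.

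How far the ratio of 2 peaks varied over the 7 libraries was measured by the chi-square of their counts per degree of freedom, which is near 1 when reads differ by sampling alone. It was 0.339 for the pair of higher peaks. Among the 78 pairs of the other 13 tested peaks it ranged from 0.0892 to 2.26, with a median of 0.983. Pairs of 1 higher and 1 other peak ranged from 1.46 to 12.1, with a median of 6.20. The group means were not removed here, so the larger values of the mixed pairs follow from the rise that chose the window and are no separate result. The low value of the higher pair was within the range of the other 78.

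The equal counts and the near-identical Raet1d and Raet1e promoters were not linked here. In GRCm38.p6 the 2 near-identical promoters begin at 22173247 and 22361644. In mm9 the higher peaks begin at 21977736 and 22167976, which are further apart. Nearer to the promoters' distance were the peaks beginning at 21893018, under the low-count filter, and 22081403, not called. Whether the 2 higher peaks lie on these promoters, and whether their reads were divided between 2 copies of 1 sequence, was not tested. The 2 calls are therefore not taken as independent observations. Summed over both peaks, the level was 10.3, 17.5, 25.0 and 15.5 CPM in controls 1 to 4, and 43.0, 29.5 and 59.0 CPM in Runx3 1, 3 and 4. The means were 17.1 ± 6.10 CPM (SD, n = 4) and 43.9 ± 14.8 CPM (SD, n = 3), a ratio of 2.56.

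The other 13 tested peaks did not share this pattern. Of these, 11 had a log2 fold change below 0 and 2 above it, and none passed the test. Over all 15 the median log2 fold change was -0.23, and it was -0.27 without the higher pair, where that of all tested peaks was -0.01. Below 0 were 73.3% of the 15 and 51.2% of all tested peaks. At 3 of the 15 all Runx3 libraries were lower than all controls, a pattern held by 4.58% of all tested peaks. The opposite pattern was seen at the 2 higher peaks alone among the 15, and at 4.36% of all tested peaks.

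**Figure D3:**
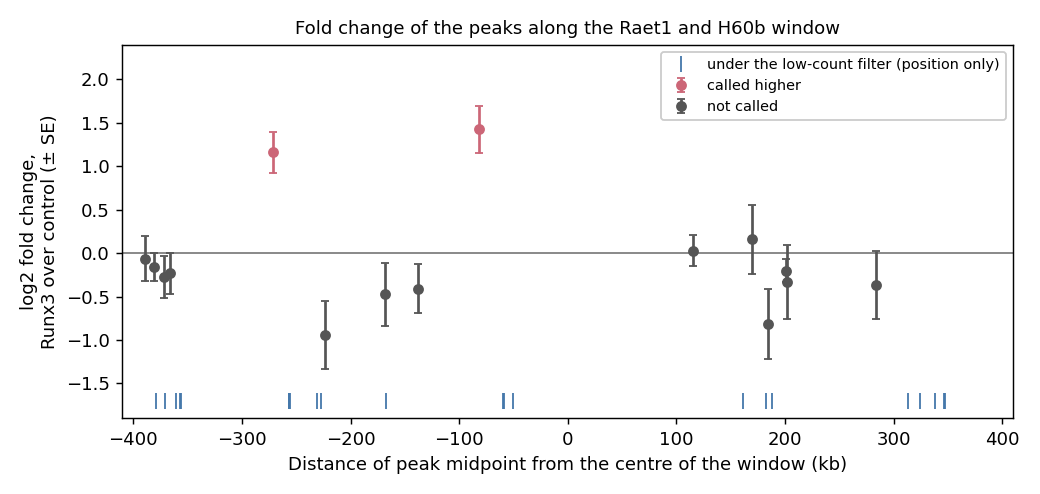
Log2 fold change with its SE (y axis) of the 15 tested peaks against the distance of the peak's midpoint from the centre of the window in kb (x axis). The 2 higher peaks stand at 1.16 and 1.43, and the other 13 lie between -0.94 and 0.16. Ticks at the bottom give only the position of the 22 peaks with too few reads to be tested.

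The largest difference among these 13 was at 22026165 to 22026643, between the 2 higher peaks. It had 7.23, 6.23, 3.78 and 6.04 CPM in controls 1 to 4, and 3.74, 2.53 and 2.72 CPM in Runx3 1, 3 and 4. The groups did not overlap, but control 3 and Runx3 1 were almost equal. Its log2 fold change was -0.94 ± 0.39 (SE), and it was the 1 peak lower at an unadjusted p under 0.05. Next was the peak at 22434382 to 22434712, with 6.20, 5.84, 4.37 and 4.60 CPM in controls and 1.25, 3.37 and 3.63 CPM with Runx3. Here too the groups did not overlap, and the log2 fold change was -0.82 ± 0.41 (SE). Runx3 1 was the lowest, with a value that rests on 2 reads.

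Other peaks of low level differed by less than their spread allowed to tell. At 22081403 to 22081826 the controls had 5.68, 4.28, 6.99 and 4.60 CPM and the Runx3 libraries 4.37, 4.22 and 3.18 CPM (log2 fold change -0.47 ± 0.36, SE). The groups overlapped, since control 2 lay below Runx3 1. At 22111495 to 22111817 levels were 7.23, 12.9, 7.57 and 9.49 CPM in controls and 8.11, 6.32 and 6.81 CPM with Runx3 (-0.41 ± 0.28, SE). Control 2 was the highest there and the groups overlapped again. The peak at 22533297 to 22533862 had 3.10, 5.06, 4.37 and 5.46 CPM in controls and 3.12, 2.95 and 4.54 CPM with Runx3 (-0.37 ± 0.39, SE). At 22452085 to 22452314 the values were 3.61, 5.06, 2.91 and 4.89 CPM in controls and 4.99, 2.95 and 2.27 CPM with Runx3 (-0.33 ± 0.43, SE). In both, the standard error was as large as the difference.

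At the most accessible peaks of the window the fitted differences were small and none passed the test. The highest, at 22450482 to 22451830, is 1348 bases wide, and its mean level over the libraries exceeded that of 95.7% of all peaks. Controls 1 to 4 had 56.8, 50.6, 50.9 and 49.5 CPM, and Runx3 1, 3 and 4 had 49.9, 37.5 and 48.6 CPM. Only Runx3 3 stood clearly below the controls, and the log2 fold change was -0.20 ± 0.13 (SE).

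At 21868210 to 21869521 the level was 34.1, 31.9, 27.7 and 27.0 CPM in controls and 29.9, 24.5 and 26.3 CPM with Runx3 (-0.16 ± 0.16, SE). The peak at 22364636 to 22365378, which follows a stretch of 165 kb without any peak, had 28.4, 18.3, 22.7 and 27.0 CPM in controls and 26.8, 24.5 and 22.7 CPM with Runx3 (0.03 ± 0.18, SE). Its groups overlapped throughout. At 21883422 to 21883846 there were 20.7, 16.4, 16.9 and 12.4 CPM in controls and 17.5, 16.9 and 7.72 CPM with Runx3 (-0.23 ± 0.24, SE), and Runx3 4 was the lowest of the 7.

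The remaining tested peaks complete this picture. The peak at 21878137 to 21878536 had 12.9, 10.5, 10.5 and 11.2 CPM in controls and 9.36, 8.43 and 9.98 CPM with Runx3. All Runx3 libraries lay below all controls by a small margin, with a log2 fold change of -0.27 ± 0.24 (SE). The peak at 21860585 to 21861080 gave 11.4, 10.5, 11.1 and 7.19 CPM in controls and 6.24, 11.4 and 9.98 CPM with Runx3 (-0.06 ± 0.26, SE). At 22419701 to 22420088 there were 2.58, 4.28, 6.11 and 2.88 CPM in controls and 6.24, 3.79 and 4.08 CPM with Runx3 (0.16 ± 0.40, SE). Neither of these 2 separated the groups.

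The 22 peaks under the low-count filter held 19.4% of the 4336 reads of the window, with 14 to 77 reads each over the 7 libraries. No library had more than 27 reads in any of them, and 6 had no read in at least 1 library. Mean CPM was higher with Runx3 in 10 and lower in 12, and in none were the groups apart. Over all 37 peaks the median level was 2.80 CPM, against 4.72 CPM over all peaks of the table, and the 3 deepest peaks held 41.3% of the reads.

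On the left flank, 5 such peaks lie between the tested ones. At 21870624 to 21870872 there were 8, 10, 14 and 8 reads in controls and 2, 11 and 7 with Runx3. At 21878726 to 21879152 there were 7, 16, 27 and 8 reads in controls and 6, 6 and 7 with Runx3, so that controls 2 and 3 alone stood out. At 21889010 to 21889209 no library exceeded 9 reads. At 21893018 to 21893438 controls had 7, 4, 18 and 15 reads and Runx3 libraries 3, 9 and 9. At 21893972 to 21894236 control 3 had 16 reads and the other controls 4 to 6, while Runx3 1 had 4 and Runx3 3 and 4 had 0, a count that allows up to 1.26 and 1.36 CPM.

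Between the 2 higher peaks there were 9 members, of which 3 were tested. A tight group of 3 weak peaks follows the first higher peak. Its members held 3 to 12 reads per library at 21992982 to 21993350, 0 to 4 at 21993390 to 21993772 and 1 to 10 at 21993811 to 21994284. None of them showed the rise of the peak before them. At 22019198 to 22019512 there were 2, 11, 15 and 6 reads in controls and 6, 4 and 5 with Runx3, at 22022296 to 22022496 there were 1 to 7 per library, and at 22082361 to 22082631 there were 5, 4, 15 and 5 in controls and 4, 1 and 2 with Runx3.

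Just beyond the second higher peak the weak peak at 22191071 to 22191430 had 3, 6, 2 and 8 reads in controls and 9, 1 and 15 with Runx3. In CPM these were 1.55, 2.34, 0.582 and 2.30 in controls and 5.61, 0.422 and 6.81 with Runx3. Runx3 4 and Runx3 1 were thus the highest, as at both higher peaks, but Runx3 3 was the lowest of all, with 1 read. Its neighbour at 22190142 to 22190435 had 1 to 3 reads in controls and 4, 0 and 4 with Runx3, and the peak at 22199717 to 22199983 had 3, 3, 10 and 11 in controls and 4, 3 and 5 with Runx3. Fitted without the low-count filter, 3 of the 22 weak peaks reached an unadjusted p under 0.05 and none was called in edgeR. They were this peak at 22191071 and the one at 22432676, both higher with Runx3, and the one at 21893972, which was lower. The share of all peaks at that threshold in this fit is not given here. The counts are low as well, so nothing is read from these 3.

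Towards the right end, the peak at 22432676 to 22432892 had 1, 0, 1 and 5 reads in controls and 6, 4 and 3 with Runx3, which is 0.561 ± 0.621 CPM (SD, n = 4) and 2.26 ± 1.29 CPM (SD, n = 3). The groups overlapped, and the control mean lies below the level of 3 reads in any control library. At 22438358 to 22438638 counts were 5, 4, 9 and 7 in controls and 4, 9 and 6 with Runx3, and at 22411150 to 22411467 they were 2 to 9 and 2 to 5. At 22563013 to 22563544 there were 3, 5, 10 and 8 reads in controls and 7, 5 and 9 with Runx3. The last 4 members, from 22574320 to 22597927, had between 0 and 12 reads per library. Control 1 had 0 reads at 2 of them, at 22574320 to 22574802 and at 22596638 to 22596886, where 0 reads in that library allow up to 1.55 CPM.

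Summed over all 37 peaks, the level was 250 CPM in control 1, 241 in control 2, 264 in control 3 and 231 in control 4, and 264, 219 and 262 CPM in Runx3 1, 3 and 4. The groups overlapped, with means of 247 ± 14.0 CPM (SD, n = 4) and 248 ± 25.3 CPM (SD, n = 3). Without the 2 higher peaks the sums were 240, 223, 239 and 216 CPM in controls and 221, 190 and 203 CPM with Runx3. These means were 229 ± 11.8 CPM (SD, n = 4) and 205 ± 15.6 CPM (SD, n = 3), and the groups overlapped only through control 4 and Runx3 1. The higher pair held 4.13 to 9.47% of the reads of the window in controls and 13.5 to 22.5% with Runx3.

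**Figure D4:**
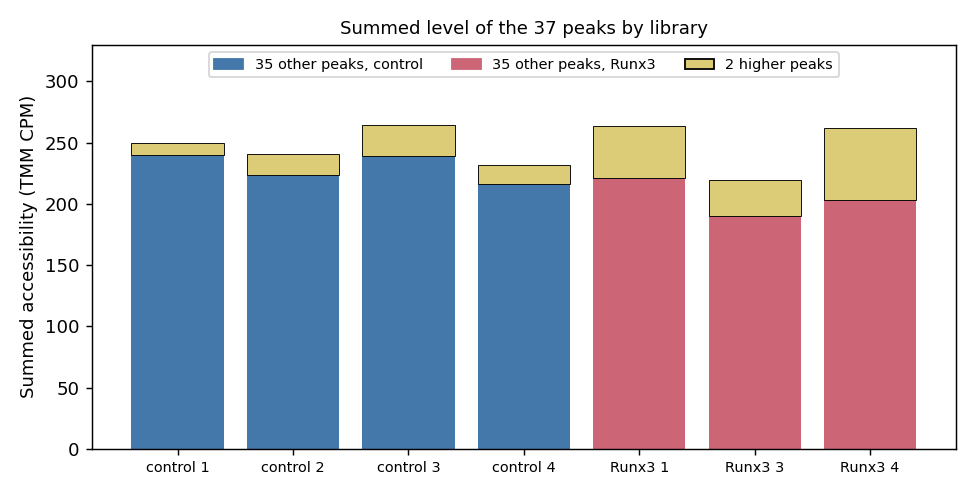
Summed accessibility in TMM-scaled CPM (y axis, from 0) of all 37 peaks in each library, with the 2 higher peaks in yellow on top of the other 35. Totals lie between 231 and 264 CPM in controls and between 219 and 264 CPM with Runx3. The yellow part is 10.3 to 25.0 CPM in controls and 29.5 to 59.0 CPM with Runx3.

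To see whether the peaks rose and fell together apart from the vector, the mean of each group was removed from the log2 CPM of the 15 tested peaks and the rest was correlated over the 7 libraries. All pairs share the same 7 libraries, and at these depths sampling noise lowers a correlation, so the values are a description. The median over 105 pairs was -0.08, beside 0.02 over all 1855605 pairs of tested peaks at most 800 kb apart on a chromosome. Leaving out 1 library moved it between -0.14 (without control 4) and 0.0093 (without control 3), so its sign rests on single libraries. Above 0 were 43.8% of the pairs of the window and 51.5% of all such pairs. At less than 10 kb the medians were -0.02 for 4 pairs of the window and 0.06 for all. From 10 to 100 kb they were -0.06 and 0.03, and further apart -0.10 and 0.02. A common rise and fall of the tested peaks was not seen in these medians.

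The 2 higher peaks were the exception, with a Pearson r of 0.99, the highest of the 105 pairs. Among all pairs of tested peaks at most 800 kb apart, 131 had an r as high, or 0.00706%. Those pairs were not matched to this one for depth. With nearly equal counts of the pair in each library a high r follows, so it is no separate result. Against the other 13 tested peaks the pair had a median r of -0.19, with a wide range. The first and second higher peak had 0.72 and 0.66 with the peak starting at 22419701. They had 0.67 and 0.69 with the one starting at 22533297, and -0.54 and -0.60 with the one starting at 21883422. The next highest value in the window was 0.79, for the peaks at 21860585 to 21861080 and 22434382 to 22434712, which are 574 kb apart. The 2 widest peaks, at 21868210 to 21869521 and 22450482 to 22451830, had 0.72 at 582 kb.

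**Figure D5:**
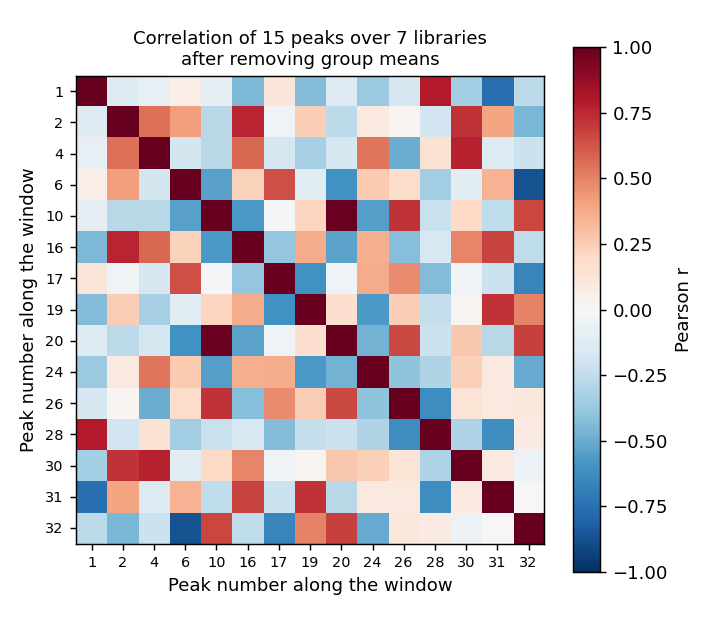
Pearson correlation (colour, from -1 to 1) of the log2 CPM of the 15 tested peaks over 7 libraries after the group means were removed, with peaks numbered 1 to 37 along the window on both axes. Peaks 10 and 20, the 2 higher ones, have an r of 0.99, while the median of all 105 pairs is -0.08.

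Earlier work on these counts found that control 1, control 2 and Runx3 1 share a set of peaks that is nearly absent from the other libraries. These 3 are called set 1 here and the other 4 set 2. Within set 1 the log2 fold changes of the higher peaks were 1.41 and 1.75, and within set 2 they were 0.998 and 1.21. Neither set alone called them, and as the groups do not overlap the sign within each set was fixed. With the vector as a term, no tested peak of the window was called between the sets (0 of 15 in edgeR, against 0.191% of all tested peaks, and 0 at an unadjusted p under 0.05, where 6.04% of all tested peaks were), and DESeq2 called 0 as well. A count of 0 of 15 is near both shares. The sets were found in these same counts, so both shares may include the peaks that defined them. The largest set difference was a log2 fold change of 0.45 ± 0.36 (SE) at 22026165 to 22026643. A difference between the sets in the response to the vector was called at none of the 15 in edgeR, nor at any other tested peak. At an unadjusted p under 0.05 it was 0 of the 15 and 4.71% of all tested peaks, so these counts say nothing particular about the window.

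Outside the window, the tested peak whose level over the 7 libraries was most like the summed level of all 37 was on chromosome 17 at 28427585 to 28427990 (Pearson r of 0.98 over 7 libraries, among 33381 candidates that averaged 20 reads or more per library). The next 4 were on chromosome 16 at 11659057 to 11659880, chromosome 6 at 32667760 to 32668292, chromosome 10 at 82152508 to 82153620 and chromosome 13 at 58485906 to 58486868, with r from 0.96 to 0.97. These were the 5 highest of all candidates, and the ranking is a description.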

How the data were processed

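Omni-ATAC-seq libraries were compared between 4 control and 3 Runx3 libraries. The authors deposited read counts per peak as whole numbers, with no normalization. The submitters' processing notes name Bowtie2, MACS2, Picard, SAMtools, Trim Galore and FastQC, and mm9 as the genome build. Not given in the sources used here are tool versions, any transposase shift and how reads that map to several places were handled.

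Peaks whose midpoint lay in the window were taken from the table of 98723 peaks. Tests ran on all peaks in edgeR 4.0.16 (R 4.3.3): filterByExpr (minimum count 10, minimum total 15), TMM scaling, the robust quasi-likelihood test and Benjamini-Hochberg adjustment over 57504 peaks, with a threshold of 0.05. The test was checked on simulated data. A standard error is the log2 fold change divided by the square root of F, which is approximate. CPM are TMM-scaled. Correlations used log2 CPM with a prior count of 2. Shares have exact (Clopper-Pearson) 95% binomial intervals. The counts carry no molecular identifiers, so intervals cover counting error only. Total counts ran from 1738164 to 3758422 per library, and 3 reads correspond to 0.863 to 1.87 CPM. The mean total was 3113949 in controls and 2238860 with Runx3.

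The window, the lists, the library sets and the tests were chosen with earlier results of these data known. By a fixed rule, every peak of the window is a member. Values in every library are given for peaks called between the vector groups or between the library sets, the 6 other tested peaks with the largest absolute log2 fold change and the 4 others with the highest mean CPM. The remaining members are also described. DESeq2 1.42.0, limma-voom (limma 3.58.1), other scalings and filters, a replicate block, library sets, depth, windows and leaving out each library were tried as alternatives. Promoters were aligned with Biopython 1.88.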

Additional observations from a re-analysis of the deposited data

How the results depend on the processing

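The 2 calls of higher accessibility, and the 0 calls of lower accessibility, stayed the same without TMM, with median-ratio factors, with no low-count filter, at an adjusted p under 0.10, with the library set as a term, with total counts in the model, and in the narrower and wider windows. Without robust estimation, and with libraries thinned to the smallest total, 1 peak was called. Within library set 1, where Runx3 1 is the only Runx3 library, the log2 fold changes of the pair were 1.41 and 1.75. With a mean count of at least 20, in DESeq2, in limma-voom and within library set 2, 0 were called. In each of these, 2 were higher at an unadjusted p under 0.05, which adds no support since the contrast chose the window. Leaving out 1 library gave from 0 to 2 calls, with 0 without control 2, control 4, Runx3 1 or Runx3 4. The median log2 fold change of -0.23 became -0.37 with total counts in the model, -0.035 with thinning, where 9 peaks were tested, and -0.12 in the window widened by 200 kb at each end. Leaving out 1 library gave -0.28 to -0.17. The log2 ratio of the summed level went from 0.01 to 0.13 in the window narrowed by 100 kb at each end, and to -0.17 without the 2 higher peaks, and lay between -0.03 and 0.09 when 1 library was left out. The median correlation of -0.08 was -0.0062 without control 1, and leaving out other single libraries moved it from -0.14 (without control 4) to 0.0093 (without control 3), so its sign was not stable. Of 226 recomputed log2 fold changes of the 13 other tested peaks, 12 had the opposite sign. Where the windows or sums hold other peaks, that is the change. Elsewhere the cause was not tested.

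In the fit with a replicate block, 2 peaks were called higher and 0 lower, and the median log2 fold change was -0.23. The deviations of same-numbered libraries correlated at 0.117, 0.0993 and 0.0663 over all tested peaks, and each Runx3 library correlated best with the control of its number. This is a hint from the data and not the design, and the block changed no call. The low counts limit what can be seen at the 22 peaks under the filter.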

Other observations

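The peaks most like the summed level of the 2 higher peaks were looked up after those values had been seen. The first was on chromosome 5 at 150718336 to 150718780, with a Pearson r of 0.995 over 7 libraries among 33381 candidates. Its level was 5.68 to 8.15 CPM in the 4 controls, and 10.6, 8.85 and 11.3 CPM in Runx3 1, 3 and 4. The order of the libraries was that of the pair, while the range was narrower. The next was on chromosome 7 at 148285775 to 148286576, with an r of 0.99. Control levels there were 9.81, 11.3, 11.9 and 10.6 CPM, and Runx3 levels lay between 13.1 and 16.3 CPM. The likeness was picked from all candidates and uses the contrast that chose the window, so it was given no test.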
